A study of Mus musculus with 6 samples.

Results

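Mature olfactory sensory neuron-like cells (OSN-like cells) were 172 of the 3679 barcodes with 5000 or more fragments in 6 single-cell ATAC-seq libraries of mouse olfactory epithelium. A fragment is a piece of DNA cut out of open chromatin by the transposase, and each of its ends is a cut site. OSN-like cells were chosen by their cut sites over 9 marker genes of mature neurons (Omp, Gng13, Rtp1, Rtp2, Cnga2, Stoml3, S100a5, Jakmip1 and Stmn4), counted in gene windows, which are the gene body plus 2 kb upstream. The marker fold of a barcode is the share of its cut sites in these windows divided by the same share over all 3679 barcodes. A member had a fold of 3 or more, cut sites in 4 or more of the 9 windows, and a higher fold than for 8 genes of immature neurons and their precursors (Nhlh1, Gap43, Neurod1, Neurog1, Stmn2, Calb2, Rd3 and Insm1). The cells were thus chosen from the accessibility data themselves, so their levels against other cells are a description with no test, and tests are given only between injured and uninjured libraries, which the choice did not use. Changes after injury of the 9 and 8 genes of the rule are a description too, since the rule used their levels.

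The study profiled horizontal basal cells, the reserve stem cells of the olfactory epithelium, before and after injury. All mice carried Krt5Cre ER together with Rosa26 LSL-YFP/LSL-YFP: an inducible Cre driven by the basal keratin gene Krt5 switches on YFP in basal cells, a label that cells descending from them keep. 3 libraries came from uninjured control mice (uninjured replicates 1 to 3) and 3 from mice taken 24 h after an intraperitoneal dose of methimazole, a drug that destroys the epithelium above the basal cells (injured replicates 1 to 3). In both groups the mice of replicate 1 were 8 weeks old, those of replicate 2 were 6 weeks and those of replicate 3 were 6 to 7 weeks. Dorsal epithelium of each animal was dissociated on its own, cells positive for YFP and negative for propidium iodide were sorted, and their nuclei were used. The series calls the replicates biological, and how many animals went into each library is not given in the sources used here. The labels name the cell type of every library as horizontal basal cell. How the OSN-like nuclei passed the YFP gate was not tested.

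Mature olfactory sensory neurons sit above the basal layer and are the odour-detecting cells of the nose. Odorants bind receptors on their cilia, the G protein subunit encoded by Gnal activates the adenylyl cyclase Adcy3, and cyclic AMP opens a channel built from Cnga2, Cnga4 and Cngb1, after which chloride leaves through Ano2. Each neuron expresses a single olfactory receptor gene, and the factors EBF and LHX2 are known to bind receptor promoters and the enhancers between receptor genes.

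The 12 sequences given first are 3 promoters of marker genes, 6 regions between receptor genes and 3 further regions. The promoter stretches were chosen by their letters, and their own level was not measured. EBF-type and homeodomain-type motifs are shown. Both were more frequent in 500 bp tiles of the genome 4-fold or more above other cells than in other tiles open in OSN-like cells. So were E-box and AP-1 motifs, described below, and 20.2% of the former lay within 1 kb of a start against 91.5% of the latter. Among tiles 5 kb or more from a start the AP-1 order turned, while EBF and homeodomain motifs stayed more frequent. The RefSeq table of GRCm38.p6 promoters, which runs from 250 bases before to 50 after each start, held 6 of the 9 marker genes. Of these, 3 promoters held CCCNNGGG, the inner part of the EBF motif, a palindrome that reads alike on both strands. They are printed on the strand of the gene with that motif in capitals, and Gng13 holds 2 overlapping copies. The same letters occur in 13.7% of the 32851 promoters of the table. None of the 6 held the full EBF consensus, which is CCCNNGGG with a T before and an A after it, present in 0.904% of promoters, or TAATTA, present in 5.29%. The promoters lie at chr16:23930745-23931044 (minus strand), chr17:25716922-25717221 (plus strand) and chrX:71991599-71991898 (plus strand). That of Rtp2 lies inside the gene, over 1 kb from the start used for its gene window here.
Rtp2 promoter: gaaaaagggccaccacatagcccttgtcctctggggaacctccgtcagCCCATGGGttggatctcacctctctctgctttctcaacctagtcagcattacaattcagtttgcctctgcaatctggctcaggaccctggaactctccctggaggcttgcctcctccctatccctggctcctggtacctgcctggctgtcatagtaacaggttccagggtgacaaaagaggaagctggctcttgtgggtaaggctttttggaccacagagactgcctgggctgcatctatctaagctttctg
Gng13 promoter: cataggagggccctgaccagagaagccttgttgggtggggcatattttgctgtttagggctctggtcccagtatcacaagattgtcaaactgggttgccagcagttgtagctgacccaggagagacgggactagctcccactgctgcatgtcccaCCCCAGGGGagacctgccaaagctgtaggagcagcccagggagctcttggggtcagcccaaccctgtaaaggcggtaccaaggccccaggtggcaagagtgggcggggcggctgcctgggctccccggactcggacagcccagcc
Cnga2 promoter: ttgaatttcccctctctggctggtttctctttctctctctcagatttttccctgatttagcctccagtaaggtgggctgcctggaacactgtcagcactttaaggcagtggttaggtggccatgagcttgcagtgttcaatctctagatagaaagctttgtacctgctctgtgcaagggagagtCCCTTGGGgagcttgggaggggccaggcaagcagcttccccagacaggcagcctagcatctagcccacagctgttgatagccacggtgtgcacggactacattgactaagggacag

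The next 6 sequences come from regions between 2 olfactory receptor genes that were at least 4 times as open in OSN-like cells as in other cells, and 6 of 7 such regions held the homeodomain core TAATTA. Each is a stretch of 120 bases of the plus strand (RefSeq GRCm38.p6) around the TAATTA nearest the point with most cut sites, at most 100 bases from it, with that palindrome in capitals. TAATTA was present in 12.5% of all open 500 bp tiles and in 20.9% of the tiles at least 4 times the level of other cells. Of the latter tiles 5 kb or more from a start, 24.8% held it. The positions of the 6 stretches are chr7:140187279-140187398, chr11:74036289-74036408, chr2:37128010-37128129, chr6:42869881-42870000, chr11:50999337-50999456 and chr7:108797621-108797740, in the order printed.
region between Olfr523 and Olfr524: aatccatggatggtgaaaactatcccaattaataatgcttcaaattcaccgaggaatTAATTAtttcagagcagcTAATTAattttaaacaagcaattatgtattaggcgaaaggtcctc
region between Olfr398 and Olfr139: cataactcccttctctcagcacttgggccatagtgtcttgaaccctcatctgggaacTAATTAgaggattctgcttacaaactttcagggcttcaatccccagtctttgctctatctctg
region between Olfr362 and Olfr364-ps1: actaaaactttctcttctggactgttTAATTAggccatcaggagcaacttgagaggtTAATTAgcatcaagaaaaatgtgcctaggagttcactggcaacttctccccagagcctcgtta
region between Olfr449 and Olfr448: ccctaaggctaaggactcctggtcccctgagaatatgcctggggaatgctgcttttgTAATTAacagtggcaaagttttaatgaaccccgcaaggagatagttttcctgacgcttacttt
region between Olfr1377 and Olfr51: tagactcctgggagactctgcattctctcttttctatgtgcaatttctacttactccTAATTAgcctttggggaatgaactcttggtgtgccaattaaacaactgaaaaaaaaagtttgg
region between Olfr513 and Olfr514: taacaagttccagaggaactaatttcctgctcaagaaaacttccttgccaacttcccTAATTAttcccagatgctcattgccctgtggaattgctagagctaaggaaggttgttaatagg

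The last 3 are the distal regions with the highest level in OSN-like cells among those 4-fold or more above other cells in all 6 libraries and with the full EBF consensus within 100 bases of the point with most cut sites, with that consensus in capitals. A distal region lies 5 kb or more from any annotated transcription start. All 3 are in introns, at chr3:139069503-139069622, chr1:127511434-127511553 and chr3:59058775-59058894 (plus strand). The full consensus was present in 1.97% of all open tiles. A match to a motif is a description of the letters and does not show that a factor was bound.
region inside Rap1gds1: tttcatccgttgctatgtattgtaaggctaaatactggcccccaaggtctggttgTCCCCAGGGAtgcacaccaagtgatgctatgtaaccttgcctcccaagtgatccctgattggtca
region inside Tmem163: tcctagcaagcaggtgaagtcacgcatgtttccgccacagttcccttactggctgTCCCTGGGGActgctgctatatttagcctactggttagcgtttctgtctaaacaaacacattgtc
region inside Med12l: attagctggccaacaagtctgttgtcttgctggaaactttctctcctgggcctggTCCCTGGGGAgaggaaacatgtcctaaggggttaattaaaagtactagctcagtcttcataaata

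OSN-like cells made up 3.19%, 2.52% and 5.07% of the barcodes of the uninjured libraries, replicate 1 first, and 1.15%, 2.51% and 15% of those of the injured ones. These shares are 12 of 376, 16 of 636, 28 of 552, 13 of 1130, 9 of 359 and 94 of 626 barcodes, in that order. Injured replicate 3 stood far above the other libraries and held 54.7% of all OSN-like cells. Its 95% Wilson interval, which covers counting error only, ran from 12.4 to 18%, and the next highest library, uninjured replicate 3, had 3.53 to 7.23%. Injured replicate 1 lay below every uninjured library. Injured replicate 2 was almost level with the lowest uninjured library, replicate 2 (2.507 against 2.516%). The mean share was 3.59 ± 1.32% in uninjured and 6.22 ± 7.64% in injured libraries (SD, n = 3 each, exact two-sided permutation p = 1, smallest possible 0.1). Without injured replicate 3 the difference turned from 2.63 to -1.76 percentage points (exact permutation p = 0.2). In every value pooled over cells, injured replicate 3 therefore weighs most. The sort sets such shares in part, and the number of neurons in the tissue and the number passing the gate cannot be told apart.

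**Figure D1:**
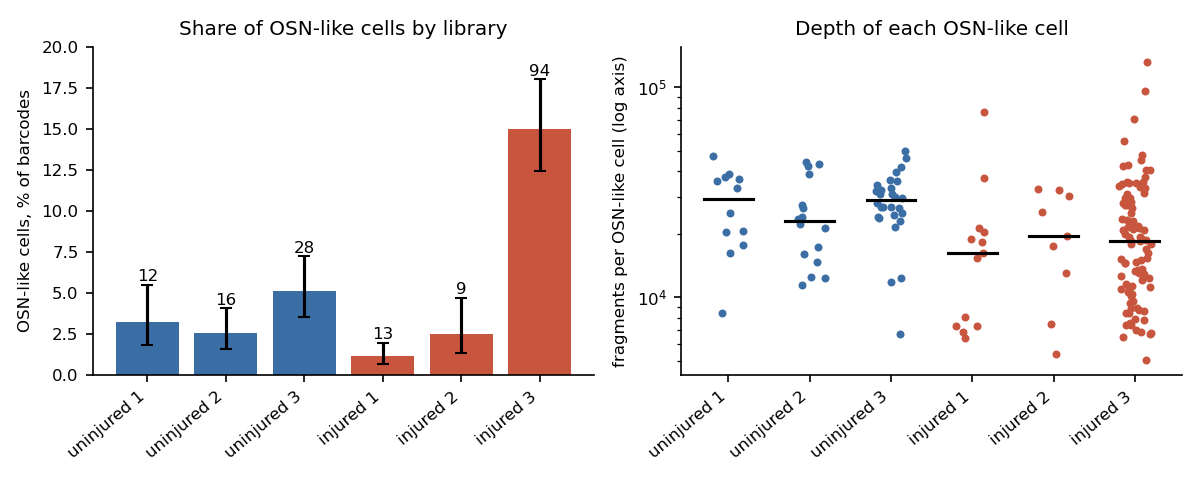
Left, OSN-like cells as a percentage of barcodes with 5000 or more fragments in each library, with 95% Wilson intervals and the number of cells above each bar. Right, fragments per OSN-like cell on a log axis with the median as a line; injured replicate 3 reaches 15% of barcodes, and the 3 injured medians (16196 to 19680) lie below the 3 uninjured ones (23099 to 29276).

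Values chosen by the rule describe what kind of cells these are. The marker fold had a median of 7.80 and ran from 3.05 to 17.3, and a member had between 8 and 168 cut sites in the 9 marker windows, with a median of 38. Cut sites lay in all 9 windows in 24 members, in 8 windows in 45, and in only 4 windows in 19. The fold for the immature genes was also raised, with a median of 3.54, and 105 members (61.0%) had 3 or more, so most OSN-like cells also had open immature-neuron genes. In 55 members the mature fold was under 1.5 times the immature fold, and the lowest ratio of the folds was 1.00. Around the threshold, the 14 members with a marker fold under 4 had a median of 3.62, and 6 barcodes that met the other conditions with a fold of 2 to 3 had a median of 2.53. The threshold of 3 kept 290 barcodes, of which 52 fell out for having under 4 marker windows and 66 for an immature fold as high or higher.

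Compared below are other cells, 2472 barcodes of the same libraries with a fold under 1 for both gene sets, and 155 immature neuron-like cells chosen by the mirrored rule. A further 880 barcodes were in none of these classes. Levels are counts-per-million (CPM), the cut sites in a window scaled to the total of all cut sites of a class in a library, given for uninjured replicates 1, 2 and 3 and then injured replicates 1, 2 and 3. OSN-like cells carried 676456, 798532 and 1625434 cut sites in the uninjured and 520538, 368486 and 4279960 in the injured libraries. Windows of neighbouring genes may overlap. Only barcodes with 5000 or more of the fragments are used here; whole libraries held between 8100227 and 23937953 fragments, and 14 barcodes occurred in more than 1 library, 1 of them a member. Doublets, called from stretches covered by more than 2 fragments, were 9 of the members (5.23%), 12.5% of other cells and 11.1% of all barcodes.

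Omp, which encodes the olfactory marker protein of mature neurons (chr7:98143359-98145502), stood at 130.1, 91.4 and 127 CPM in the uninjured and 67.2, 111 and 108 CPM in the injured libraries. In other cells of these libraries it ranged from 0.595 to 2.89 CPM, so every OSN-like value lay above every other-cell value. The means over the 6 libraries were 106 ± 23.6 and 1.64 ± 0.866 CPM (SD, n = 6), and immature neuron-like cells were between them at 23.1 ± 4.38 CPM. Gng13, the G protein gamma subunit of olfactory signalling (chr17:25717171-25719406), stood at 84.3, 82.7 and 91.1 CPM in the uninjured and 73.0, 119 and 101.4 CPM in the injured libraries, against 2.04 to 3.55 CPM in other cells. The receptor transporters Rtp1 and Rtp2, which carry olfactory receptors to the cell surface, both lie on chromosome 16. Rtp1 (chr16:23429133-23433960) had 88.4 ± 20.2 CPM in OSN-like cells and 0.739 ± 0.159 CPM in other cells (SD, n = 6), the highest ratio of the 9 markers. Rtp2 (chr16:23925548-23932394) had 114 ± 36.2 and 1.24 ± 0.644 CPM. Among the injured libraries its level was highest in replicate 2, at 179 CPM, a library with 9 OSN-like cells.

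The remaining markers had the same order between the classes. S100a5, a calcium-binding protein whose expression follows odour activity, had 68.1 ± 20.8 CPM in OSN-like and 1.39 ± 0.510 CPM in other cells (SD, n = 6). Stmn4, a neuronal stathmin that binds tubulin, had 84.5 ± 25.5 and 2.07 ± 0.916 CPM, and injured replicate 1 was lowest at 34.6 CPM. Jakmip1, a neuronal protein that binds microtubules, had 187 ± 29.2 and 16.2 ± 7.86 CPM. Stoml3, a stomatin-like protein of the olfactory cilia, had 103 ± 24.1 and 12.5 ± 4.03 CPM, the smallest ratio of the markers at 8.25. Cnga2, the main subunit of the cyclic nucleotide-gated channel, had 41.0 ± 10.7 and 2.01 ± 1.12 CPM, and here immature neuron-like cells came close at 30.3 ± 7.65 CPM. Per kb of window, Omp was the most open marker in OSN-like cells, at 25.6 CPM per kb, followed by Gng13 at 21.7 and S100a5 at 13.0, while Jakmip1 had 1.50 CPM per kb. All 9 windows were 2-fold or more above other cells in each of the 6 libraries, as were 3.38% of the 15850 windows whose mean of the OSN-like and other-cell levels was at least 5 CPM. The rule used these genes, so nothing is read from that count.

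Genes of immature neurons were open too, with a lower mean than in immature neuron-like cells for each of the 8. Of the 8, 5 were 2-fold or more above other cells in all 6 libraries, against 3.38% of all windows. The rule used these genes too, and other cells were chosen for a low level of them, so nothing is read from this count. Gap43, the growth-cone protein of immature neurons, had 98.0 ± 26.3 CPM in OSN-like cells, 182 ± 30.1 CPM in immature neuron-like cells and 11.3 ± 1.35 CPM in other cells (SD, n = 6). Nhlh1, a bHLH factor of late precursors, had 19.2 ± 9.12, 62.0 ± 5.40 and 3.37 ± 0.909 CPM, and Calb2, the calcium-binding protein calretinin, had 39.5 ± 12.3, 82.6 ± 25.6 and 3.41 ± 0.816 CPM, in the same order of classes. Stmn2, a stathmin of growing axons, was closer in both neuron classes, at 103 ± 24.8 and 114 ± 28.7 CPM, and so was Rd3, a regulator of guanylyl cyclases, at 82.2 ± 9.35 and 87.1 ± 13.6 CPM. Of the neurogenic factor genes, Neurod1 had 20.9 ± 10.7, Neurog1 8.05 ± 6.92 and Insm1 44.5 ± 12.9 CPM in OSN-like cells, against 3.35 ± 1.62, 2.51 ± 0.348 and 8.45 ± 1.32 CPM in other cells, and Neurog1 was below other cells in 1 library. Over the set, the median ratio to other cells was 7.44 in OSN-like and 17.2 in immature neuron-like cells, and over the 9 mature markers it was 40.8 and 14.1. A median ratio of 1.02 was found over all 15850 windows in OSN-like cells.

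Genes of odour transduction outside the rule were described next. Of 16 on the list, 15 passed the level filter, 9 were 2-fold or more above other cells in all 6 libraries and 12 were above other cells in all 6, with a median ratio of 3.43. Over all 15850 windows, 3.38% were 2-fold or more above in all 6 and 2706 windows were above in all 6. Gnal (chr18:67088216-67226792), the G protein alpha subunit that couples receptors to the cyclase, stood at 331, 245 and 433 CPM in the uninjured and 223, 369 and 322 CPM in the injured libraries. In other cells it ranged from 52.7 to 59.7 CPM, and no OSN-like library fell into that range. Adcy3 (chr12:4133103-4213525), the adenylyl cyclase of the cilia, stood at 279, 301 and 292 CPM in the uninjured and 181, 304 and 218 CPM in the injured libraries, and injured replicates 1 and 3 were the lowest. Its mean was 262 ± 50.9 CPM against 37.8 ± 7.87 in other cells and 125 ± 21.5 in immature neuron-like cells (SD, n = 6). Cnga4 (chr7:105404568-105408742), a modulatory subunit of the channel, stood at 32.5, 40.1 and 52.3 CPM in the uninjured and 23.1, 43.4 and 49.1 CPM in the injured libraries, against 0.712 to 1.27 CPM in other cells. This was the largest ratio of the list, at 39.8.

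Cngb1 (chr8:95239045-95306585), the remaining subunit of the channel, had 117 ± 19.1 CPM against 38.6 ± 3.87 in other cells (SD, n = 6). Ano2 (chr6:125690419-126040126), the calcium-gated chloride channel, had 279 ± 65.5 against 96.0 ± 13.9 CPM, and immature neuron-like cells were near other cells at 113 ± 23.2 CPM. Ric8b, the exchange factor that acts on the protein of Gnal, had 368 ± 119 against 74.6 ± 9.93 CPM. Umodl1, a membrane protein known from olfactory neurons, had 123 ± 35.3 against 12 ± 2.43 CPM. The phosphodiesterases that end the signal were above other cells as well, Pde1c at 432 ± 85.6 against 126 ± 12.3 CPM and Pde4a at 155 ± 17.7 against 41.0 ± 4.83 CPM. Slc24a4, the sodium-calcium exchanger that ends the response, had 155 ± 52.2 against 43.2 ± 7.47 CPM and passed the 2-fold mark in 5 of 6 libraries, with injured replicate 1 lowest at 73.0 CPM.

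Not all genes linked to transduction stood apart. Grk3, a receptor kinase, had 27.8 ± 9.63 CPM in OSN-like and 28.6 ± 4.08 CPM in other cells (SD, n = 6), and Rgs7bp, a partner of RGS proteins, had 32.8 ± 12.7 and 21.2 ± 7.69 CPM. Gnb1, a G protein beta subunit used in many tissues, was 2-fold or more above in 3 of 6 libraries and had 107 ± 44.3 against 55.5 ± 4.42 CPM. Slc12a2, the chloride transporter that loads the neuron, had 98.7 ± 28.2 against 65.4 ± 17.2 CPM, and Faim2, a gene of neuronal survival, 123 ± 24.4 against 71.6 ± 10.5 CPM. Kcnv1 was under the level filter, with 1.44 CPM in OSN-like and 4.31 CPM in other cells. At promoters, taken as 1 kb either side of the start, 3 of 14 transduction genes were 2-fold or more above other cells in all 6 libraries, against 2.86% of 12281 promoters, while for gene windows it was 9 of 15.

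**Figure D2:**
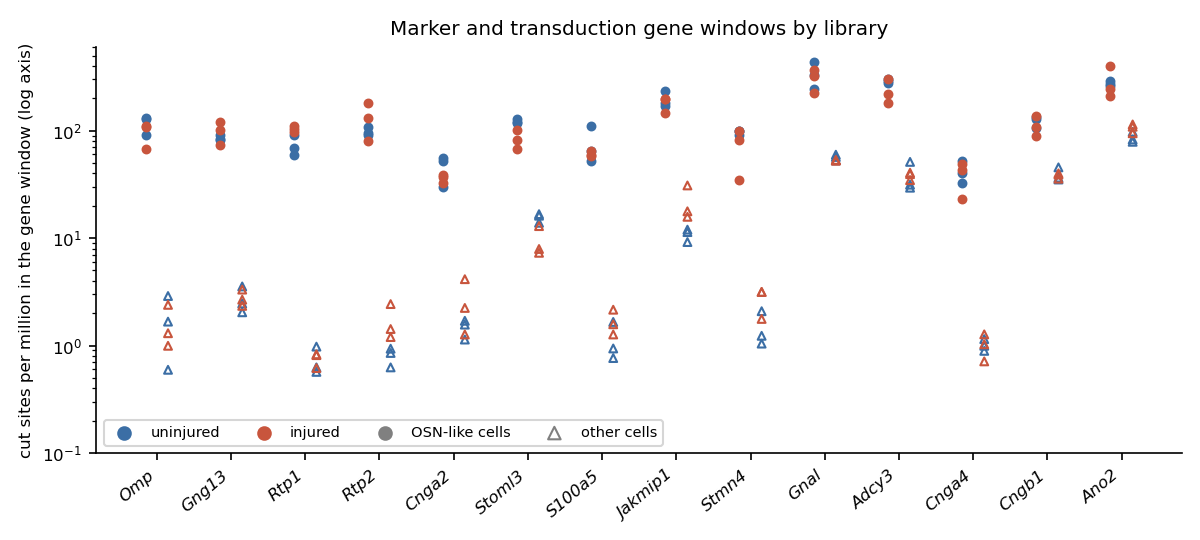
Level of 9 marker genes and 5 transduction genes in each library, in CPM over the gene window on a log axis, for OSN-like cells (filled circles) and other cells (triangles), coloured by group. For Omp the OSN-like values run from 67.2 to 130.1 CPM and the other-cell values from 0.595 to 2.89 CPM, and for each of the 14 genes the classes do not overlap.

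Transcription factor genes known from olfactory neurons made a list of 15, and 7 of them were 2-fold or more above other cells in all 6 libraries, against 3.38% of all windows, with a median ratio of 2.33. The 4 EBF genes, which encode the factors that bind the CCCNNGGG core, led the list. Ebf1 (chr11:44617317-45008091) stood at 600.2, 681 and 451 CPM in the uninjured and 542, 450.5 and 443 CPM in the injured libraries, against 41.7 to 79.8 CPM in other cells. Ebf2 (chr14:67233292-67430918) stood at 639, 591 and 631 CPM in the uninjured and 330.4, 602 and 628 CPM in the injured libraries, and injured replicate 1 was the lowest library. Ebf3 had 438 ± 91.7 CPM in OSN-like and 47.6 ± 9.53 CPM in other cells (SD, n = 6). The means of these 3 genes in immature neuron-like cells were 549 ± 101.5, 592 ± 143 and 377 ± 38.0 CPM. Ebf4 (chr2:130295169-130370481) had 176 ± 36.0 CPM in OSN-like, 23.9 ± 2.17 CPM in other and 99.1 ± 21.8 CPM in immature neuron-like cells, and it was higher in OSN-like than in immature neuron-like cells in 6 of 6 libraries.

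Lhx2, the homeodomain factor of olfactory neurons, had 161 ± 36.2 CPM against 33.1 ± 2.14 in other cells and 156 ± 11.6 in immature neuron-like cells (SD, n = 6). Emx2, a second homeodomain gene, had 60 ± 16.7 against 16.9 ± 3.78 CPM, and Rfx3, a factor of ciliary genes, 272 ± 33.2 against 87.1 ± 7.14 CPM. Zfp423, an EBF partner, had 293 ± 89.9 against 126 ± 7.45 CPM and Mef2a, an activity-linked factor, 163 ± 58.2 against 87.1 ± 8.02 CPM, both above other cells in 6 of 6 libraries. The LHX2 cofactor Ldb1 had 91.2 ± 24.2 against 60.8 ± 14.2 CPM. Near the level of other cells were Atf5 (46.4 ± 15.6 against 49.7 ± 8.56 CPM), Bptf (67.1 ± 33.2 against 67.3 ± 5.14), Nfia (214 ± 38.1 against 234 ± 17.4) and Dlx5 (42.7 ± 24.3 against 51.7 ± 7.72).

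Of 14 synapse and axon genes, 7 were 2-fold or more above other cells in all 6 libraries, against 3.38% of all windows, with a median ratio of 4.44. Slc17a6, the vesicular glutamate transporter that makes these neurons glutamatergic (chr7:51622006-51671119), stood at 88.7, 95.2 and 145 CPM in the uninjured and 92.2, 109 and 93.7 CPM in the injured libraries, against 2.09 to 6.92 CPM in other cells. Nsg1, a protein of neuronal endosomes, had 159.7 ± 27.4 against 10.6 ± 2.21 CPM (SD, n = 6). Snap25, a SNARE of synaptic vesicle fusion, had 182 ± 53.7 against 19.7 ± 4.43 CPM, and injured replicate 1 was lowest at 104 CPM. Dcx, a microtubule protein of young neurons, had 63.9 ± 22.8 against 6.70 ± 2.97 CPM. Syt1, Syp and Vamp2, of the same fusion machinery, were above other cells in 6 of 6 libraries but 2-fold or more in 1 of 6 each, and Syt1 had 358 ± 43.3 against 208 ± 19.6 CPM.

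Axon guidance and adhesion genes reached the 2-fold mark in all 6 libraries for 4 of 10 genes, against 3.38% of all windows. Kirrel2, an adhesion protein of axon sorting, had 102 ± 29.7 against 8.96 ± 1.93 CPM (SD, n = 6), Pcdh10 151 ± 31.6 against 36.7 ± 5.51, Robo2 342 ± 74.8 against 64 ± 29.8 and Cntn4 613 ± 106 against 110.3 ± 23.5 CPM. Kirrel3, which marks neurons other than those with Kirrel2, had 175 ± 48.4 against 124 ± 35.0 CPM, and Efna5 291 ± 57.4 against 258 ± 26.8 CPM.

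Position genes were read because the dissection took dorsal epithelium. Nqo1, an enzyme of dorsal neurons, was below other cells in 6 of 6 libraries, at 43.3 ± 15 against 70.2 ± 23.6 CPM (SD, n = 6). Acsm4, also of the dorsal zone, had 13.2 ± 5.85 against 4.37 ± 1.40 CPM. Ncam2, an adhesion protein of ventral neurons, was the 1 member of the list of 7 that was 2-fold or more above in 6 of 6 libraries, against 3.38% of all windows, at 203 ± 32.7 against 64.7 ± 10.3 CPM, and Nrp2, a semaphorin receptor of the ventral zone, had 161 ± 51.1 against 78.0 ± 16.5 CPM. Ncam2 and Nrp2 were lower in OSN-like than in immature neuron-like cells in 6 of 6 libraries. Nfix had 134 ± 56.9 against 177 ± 27.7 CPM, Foxa1 29.1 ± 13.2 against 71.8 ± 18.4 and Rdh10, an enzyme of retinoic acid synthesis, 60.3 ± 19.1 against 91.6 ± 8.35 CPM. The median ratio of the 7 genes was 0.756.

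Markers of rarer sensory neurons gave 1 gene of 6 tested above the 2-fold mark in all 6 libraries, against 3.38% of all windows. Trpc2, a channel best known from the vomeronasal organ (chr7:102083116-102096396), stood at 47.3, 22.5 and 20.9 CPM in the uninjured and 15.4, 10.9 and 24.8 CPM in the injured libraries, against 0.626 to 3.09 CPM in other cells. Every OSN-like value lay above that range, and uninjured replicate 1 was the highest. Gucy2d, a guanylyl cyclase of a minor neuron class, had 14.2 ± 6.99 against 7.96 ± 0.980 CPM (SD, n = 6), and Ms4a4a and Ms4a6c were at 0.987 and 0.283 CPM and under the level filter.

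Early-response genes of neuronal activity were mostly less open than in other cells. Of 10, Npas4, an activity-dependent factor of neurons, was 2-fold or more above in all 6 libraries, at 19.7 ± 9.42 against 3.90 ± 0.886 CPM (SD, n = 6). Fosb was 2-fold or more below in all 6, at 61.2 ± 22.7 against 191 ± 51.3 CPM, where 3.57% of all windows were. The list's median ratio to other cells was 0.601 in OSN-like and 0.443 in immature neuron-like cells. Summed over the list, OSN-like cells had 530 to 829 CPM and immature neuron-like cells 495 to 577 CPM. Of 16 stress and death genes 3 were 2-fold or more below in all 6 libraries: Atf3, a stress-induced factor, at 98.3 ± 27.4 against 391 ± 77.4 CPM, the heat-shock gene Hspa1b at 8.95 ± 3.00 against 46.2 ± 9.42, and Nupr1 at 3.33 ± 4.97 against 38.9 ± 16.7 CPM. None was 2-fold or more above in all 6. The median ratio of this list was 0.656 in OSN-like and 0.579 in immature neuron-like cells. Its sums were 707 to 838 CPM in OSN-like and 474 to 686 CPM in immature neuron-like cells. For both lists the sum was higher in OSN-like than in immature neuron-like cells of each library. A lower level than in other cells is thus not particular to OSN-like cells.

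**Figure D3:**
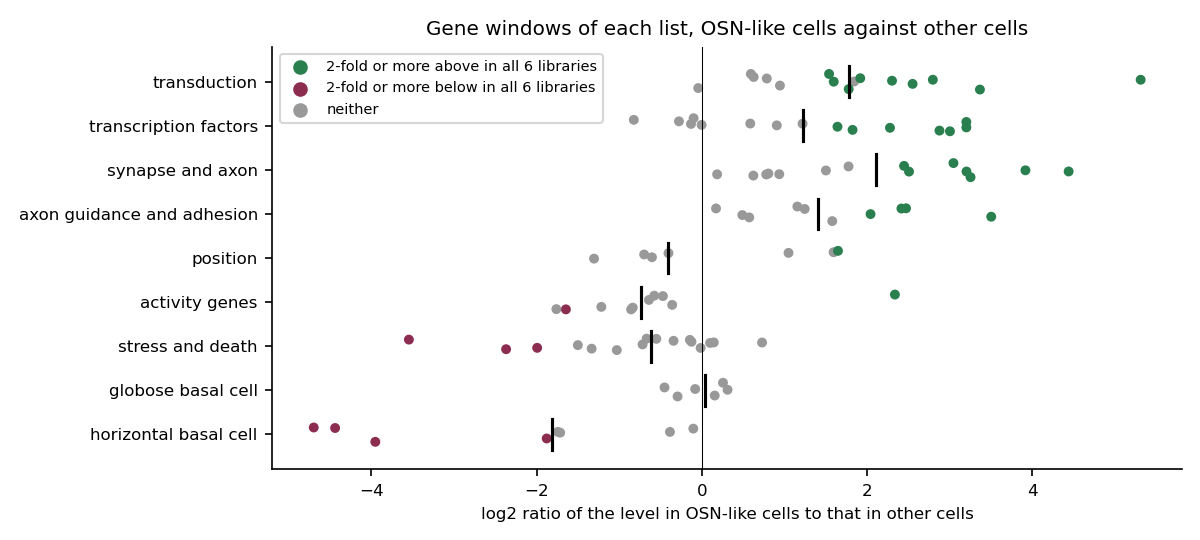
Log2 ratio of the mean level in OSN-like cells to that in other cells for each gene window that passed the level filter, by gene list, with the list median as a bar and with genes 2-fold or more above (green) or below (red) in all 6 libraries coloured. Transduction, transcription factor, synapse and guidance genes lie mostly right of 0, with median ratios of 3.43, 2.33, 4.44 and 2.68, and horizontal basal cell genes left of 0, with a median ratio of 0.285.

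Markers of the labelled cell type were checked in the same cells. Of 8 horizontal basal cell genes, 4 were 2-fold or more below other cells in all 6 libraries, against 3.57% of all windows. Krt5, the basal keratin whose promoter drives the Cre (chr15:101707070-101712898), stood at 0, 0 and 3.69 CPM in the uninjured and 11.5, 0 and 1.87 CPM in the injured libraries. In other cells it stood at 95.3, 70.6 and 55.1 CPM in the uninjured and 89.5, 69.1 and 64.2 CPM in the injured libraries, so the OSN-like barcodes go against the labelled cell type. Krt14, its keratin partner, had 3.34 ± 4.43 against 72.5 ± 14.8 CPM (SD, n = 6), Krt15 0.894 ± 0.698 against 13.8 ± 4.81, and Trp63, the master factor of basal cells, 42.3 ± 17.6 against 155 ± 13.6 CPM. Col17a1, at 40.9 ± 15 against 43.9 ± 4.30 CPM, and Dst, at 212 ± 40.5 against 278 ± 10.6 CPM, both of basal cell adhesion, were 2-fold or more below in 0 libraries. The summed level of the 8 genes was 300.2 to 419.5 CPM in the uninjured and 271 to 519 CPM in the injured libraries, against 764 to 909 CPM in other cells. Injured replicate 1 was the highest OSN-like library, with Lamb3 at 131 CPM and Itgb4 at 53.8 CPM, while the other 5 libraries had 10.9 to 35.1 and 4.92 to 16.3 CPM. The stress keratin Krt16 had 0 cut sites in OSN-like cells of all 6 libraries, against 1.67 to 35.7 CPM in other cells. OSN-like cells carried few cut sites in most libraries (368486 in injured replicate 2), so a 0 can stand for a low level. The 10 activated basal cell genes, which include Krt16, summed to 106 to 160 CPM in OSN-like and 363 to 478 CPM in other cells.

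Marker sums of other cell types were compared with those of other cells. Sustentacular genes summed to 16.3 to 97.7 CPM in OSN-like and 78.0 to 148 CPM in other cells, Bowman gland genes to 52.9 to 92.2 and 91.7 to 137, immune genes to 27.1 to 91.7 and 30.3 to 50.8, ensheathing glia genes to 51.4 to 98.0 and 103 to 131, and endothelial and stromal genes to 167 to 222 and 166 to 196 CPM. Defining markers were at or near the level of other cells or on either side of it: Tyrobp of immune cells had 0.991 against 1.08 CPM in other cells, Lyz2 0.283 against 1.00, Ptprc 19.3 against 15.6 and Csf1r 18.4 against 9.83, above in 5 of 6 libraries. Of glia, Fabp7 had 1.29 against 1.36 CPM, S100b 6.49 against 2.35, also above in 5 of 6, and Erbb3 22.3 against 78.1. Cyp2g1 of sustentacular cells had 1.43 against 4.98 and Sox10 1.79 against 4.91 CPM. Microvillar genes summed to 128 to 179 and 112 to 135 CPM, globose basal cell genes to 158 to 198 and 161 to 223, and respiratory ciliated cell genes to 169 to 293 and 117 to 208 CPM. Of the ciliated list, Foxj1, a factor of motile cilia, had 70.8 ± 16.2 against 27.8 ± 3.76 CPM and Ccdc39 38.4 ± 10.3 against 10.4 ± 2.01 CPM (SD, n = 6), each 2-fold or more above in 5 of 6 libraries, while Rsph1 had 58.8 ± 19 against 42.2 ± 4.30, Mcidas 25.9 ± 9.17 against 20 ± 5.75 and Dnah5 36.6 ± 9.65 against 53.6 ± 32.8 CPM. Coch and Chat of the microvillar list had 30.6 ± 6.13 against 9.67 ± 1.51 and 21.2 ± 9.73 against 6.72 ± 2.88 CPM, Ascl4 of the Bowman gland list 38.0 ± 9.13 against 13.2 ± 2.90 and Pdgfrb of stromal cells 33.5 ± 13.4 against 13.5 ± 1.09 CPM, each also 2-fold or more above in 5 of 6. Cyp2f2, Sox9 and Erbb3 were 2-fold or more below in 5 of 6. Over these 8 lists, Ermn and Aqp5 were 2-fold or more below other cells in all 6 libraries, against 3.57% of all windows, and no gene was 2-fold or more above in all 6, against 3.38%.

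Outside all lists, the 10 gene windows with the highest ratio to other cells among those with at least 100 pooled cut sites were Krtap24-1, Gm10842, Nnmt, Tex44, Gpr152, Pth2, Pnmal1, Lrrc3b, Mslnl and Nrn1l. Nnmt, nicotinamide N-methyltransferase (chr9:48591877-48605153), stood at 41.4, 80.1 and 82.4 CPM in the uninjured and 23.1, 86.8 and 61.7 CPM in the injured libraries, against 0.637 to 5.03 CPM in other cells. Its promoter window held a mean of 0.520 CPM in OSN-like cells, so its cut sites lay in the rest of the gene window. Lrrc3b, a leucine-rich repeat membrane protein (chr14:15357515-15438987), had the highest level of the 10, at 200.1 ± 68.8 against 9.17 ± 4.64 CPM (SD, n = 6). Pth2, which encodes a neuropeptide (chr7:45180995-45181838), varied least of the 10 among the libraries relative to its mean, at 37.0 ± 3.84 against 1.31 ± 0.709 CPM. Nrn1l, a neuritin-like gene, had 73.0 ± 21.3 against 3.66 ± 1.01 CPM and Gpr152, an orphan receptor, 40.2 ± 17.5 against 1.24 ± 0.612 CPM. Mslnl (chr17:25736042-25748330), at 47.2 ± 29 against 2.31 ± 0.934 CPM, lies close to Gng13 on chromosome 17. Krtap24-1, a hair keratin-associated gene, had 13.5 ± 7.04 against 0.282 ± 0.255 CPM, Gm10842 24.2 ± 2.87 against 0.610 ± 0.282, Tex44 35.8 ± 12.9 against 1.07 ± 0.734 and Pnmal1 17.0 ± 5.61 against 0.720 ± 0.407 CPM. Immature neuron-like cells had a lower mean than OSN-like cells for each of the 10, from 3.56 CPM for Gm10842 to 90.5 for Lrrc3b. By library, OSN-like cells were higher in 2 of 6 for Mslnl, in 4 of 6 for Gpr152 and in 5 or 6 for each of the rest. The windows were chosen by their level in OSN-like cells, which favours such an excess, so nothing is read from it.

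Open regions were read in 500 bp tiles pooled over the 6 libraries. OSN-like cells had at least 10 CPM in 15431 tiles, and 4041 of these (26.2%) were at least 4 times the level in other cells. The tiles that stood apart lay away from transcription starts: 58.4% were 5 kb or more from one, against 4.87% of the tiles at 10 CPM that did not, and 20.2% were within 1 kb, against 91.5%. After merging of neighbours there were 3539 regions, with a median of 500 bp, of which 2106 were distal and 2228 lay in an exon or intron of a protein-coding gene. In each of the 6 libraries taken alone, 2446 regions (69.1%) were 4-fold or more above other cells. The regions were chosen at this level from a pool of the same 6 libraries, so nothing is read from this count. The level of the 3539 regions was a median of 1.70 times that in immature neuron-like cells, and 311 regions (8.79%) were higher in the immature class. The regions were chosen by their level in OSN-like cells, so an excess over the immature class is favoured by the choice and nothing is read from it. Other cells had 0 cut sites in 18 regions, 15 of them distal, where 3 cut sites pooled over the libraries would have been 0.0248 CPM.

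Among distal regions with 0 cut sites in other cells, the highest was in an intron of Phactr1, a regulator of actin and phosphatase 1 (chr13:42948501-42949500), with 314 cut sites pooled. It stood at 19.2, 30.1 and 32.6 CPM in the uninjured and 40.3, 59.7 and 42.3 CPM in the injured libraries, and at 15.8 CPM in immature neuron-like cells. All 3 injured libraries lay above the 3 uninjured ones, a difference that was not tested for this single region. The share of all regions without overlap was not counted, and the choice used a pooled level in which injured replicate 3 weighs most. Nothing is read from the lack of overlap. A region in an intron of Pde7b, a cyclic AMP phosphodiesterase (chr10:20594001-20594500), held the EBF consensus and stood at 29.6, 12.5 and 20.3 CPM in the uninjured and 15.4, 16.3 and 18.9 CPM in the injured libraries. A region in an intron of Asic2, an acid-sensing channel (chr11:81872001-81872500), had 120 cut sites, and one in an intron of Themis (chr10:28874501-28875000) had 149 with 0 in uninjured replicate 1. In an intron of Baz2b (chr2:60144001-60144500) there were 110, with 0 in injured replicate 1. A further 4 of the 10 highest were intergenic, at chr13:45197501-45198000, chr19:31798501-31799000, chr13:43695001-43695500 and chr3:126459001-126459500, with 168, 128, 127 and 100 cut sites. Of the 10, 5 held TAATTA.

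Of the intronic regions whose EBF motifs are printed above, that in Rap1gds1 (chr3:139069001-139070500) stood at 23.7, 58.9 and 39.4 CPM in the uninjured and 23.1, 48.8 and 51.2 CPM in the injured libraries. Other cells had 1.12 CPM and immature neuron-like cells 5.55 CPM pooled. That in Tmem163, a zinc transporter (chr1:127511001-127512000), stood at 25.1, 21.3 and 54.1 CPM in the uninjured and 49.9, 32.6 and 39.5 CPM in the injured libraries, against 0.0908 CPM in other cells. That in Med12l (chr3:59058501-59059500) had 35.6 CPM pooled in OSN-like, 23.9 in immature neuron-like and 3.14 CPM in other cells.

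In 7 of the 3539 regions the gene on either side was an olfactory receptor gene, where enhancers of receptor clusters are known to lie. The share of all open tiles that lie between receptor genes was not counted, so nothing is read from this number. The highest, between Olfr1414 and Olfr1413 (chr1:92546001-92546500), stood at 25.1, 30.1 and 39.4 CPM in the uninjured and 9.61, 19 and 24.8 CPM in the injured libraries. It had 223 cut sites in OSN-like and 17 in other cells, and was the 1 of the 7 without TAATTA. The region between Olfr523 and Olfr524 (chr7:140187001-140187500) stood at 10.3, 18.8 and 19.1 CPM in the uninjured and 11.5, 19 and 18.5 CPM in the injured libraries, with 13 cut sites in other cells. That between Olfr398 and Olfr139 (chr11:74036001-74036500) stood at 17.7, 13.8 and 25.8 CPM in the uninjured and 7.68, 10.9 and 15.2 CPM in the injured libraries, with 138 cut sites in OSN-like and 2 in other cells. Both had cut sites in all 6 libraries.

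The remaining receptor regions had fewer cut sites. Between Olfr362 and Olfr364-ps1 (chr2:37128001-37128500) there were 110 against 12, between Olfr449 and Olfr448 (chr6:42869501-42870000) 91 against 3, between Olfr1377 and Olfr51 (chr11:50999001-50999500) 89 against 9 and between Olfr513 and Olfr514 (chr7:108797501-108798000) 85 against 5 cut sites. Injured replicate 1 had 0 cut sites in the Olfr449 region and injured replicate 2 had 0 in the Olfr1377 region, libraries with 13 and 9 OSN-like cells. In the 7 regions, chosen by their level in OSN-like cells, immature neuron-like cells had 7.27 to 16.7 CPM and OSN-like cells 10.3 to 27.0 CPM pooled. None held the EBF consensus or an AP-1 motif.

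Receptor genes themselves had few cut sites. Of 1148 olfactory receptor gene windows, 694 had a cut site in OSN-like cells and 2 passed the level filter. Of these 2, 0 were 2-fold or more above other cells in all 6 libraries, against 3.38% of all windows. With only 2 windows nothing is read from this count. Summed over receptor promoters, the level was 341, 197 and 178 CPM in the uninjured and 459, 130.3 and 207 CPM in the injured libraries, against 106, 119 and 88.3 CPM in the uninjured and 161, 340.5 and 133 CPM in the injured libraries in other cells and 297 to 717 CPM in immature neuron-like cells. For promoters, OSN-like cells lay above other cells of the same library in 5 of 6. The exception was injured replicate 2, the lowest OSN-like library and the highest in other cells. Summed over whole receptor windows, OSN-like cells had 656, 493 and 405 CPM in the uninjured and 1009, 252 and 444 CPM in the injured libraries. Other cells had 481, 529 and 434 CPM in the uninjured and 683, 1442 and 567 CPM in the injured libraries. By this sum OSN-like cells were higher only in replicate 1 of each group. To ask whether a cell had 1 leading receptor, each cell was thinned to 5000 fragments, and the top window had to hold at least 4 fragments and at least 3 times the next. This was met by 0 of 172 OSN-like cells, which allows a share of up to 1.74%, by 31 other cells (1.25%) and by 1 immature neuron-like cell (0.645%). With all fragments of each cell it was met by 16 OSN-like cells (9.30%), 136 other cells (5.50%) and 9 immature neuron-like cells (5.81%). The share in other cells, which should lack a leading receptor, is the background of this measure, so the choice of a receptor was not detectable at this depth.

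Motifs of the tiles were compared as shares. The EBF consensus was present in 6.29% of the 4041 tiles that stood apart, in 2.48% of the other tiles at 10 CPM and in 1.97% of all 443384 open tiles, which are tiles at 5 times the median level or more. TAATTA was present in 20.9%, 3.27% and 12.5%, and both motifs together in 1.04% of the tiles that stood apart and 0.0615% of the others. Among distal tiles alone the shares were 6.70 and 3.6% for the EBF consensus and 24.8 and 10.1% for TAATTA. The AP-1 motif, TGACTCA or TGAGTCA, was present in 11.3% of the tiles that stood apart, 5.48% of the other tiles at 10 CPM and 14.3% of all open tiles. Among distal tiles the order turned, with 12.8% of those that stood apart and 16.6% of the others. The E-box CAGATG or CATCTG was present in 35.6, 16.4 and 33.3% of the same 3 sets, and in 37.9 and 24.5% of the distal tiles. The CTCF core motif was present in 0.247, 0.860 and 0.765%, and in 0.212 and 3.6% of the distal tiles.

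The shares were also weighted by cut sites, in each library. Of all cut sites of OSN-like cells in open tiles, tiles with the EBF consensus took 3.6, 3.39 and 3.27% in the uninjured and 3.15, 3.57 and 3.51% in the injured libraries, against 1.75 to 1.81% in other cells and 3.36 to 3.86% in immature neuron-like cells. The lowest OSN-like library lay above the highest of other cells, and OSN-like and immature neuron-like cells overlapped. Tiles with TAATTA took 11.7, 11.5 and 10.4% in the uninjured and 10.3, 10.8 and 10.9% in the injured libraries, against 7.51 to 8.00% in other cells and 10.9 to 13.8% in immature neuron-like cells. E-box tiles took 26.9, 27.7 and 26.1% in the uninjured and 27.6, 26.8 and 27.0% in the injured libraries in OSN-like cells, and 25.5, 25.7 and 25.7% in the uninjured and 27.9, 27.6 and 27.5% in the injured libraries in other cells. OSN-like cells were above other cells of the same library in the 3 uninjured and below them in the 3 injured libraries, where other cells were higher than in the uninjured ones. CTCF tiles took 1.03 to 1.2% in OSN-like and 0.961 to 1.15% in other cells, and OSN-like cells were higher in each library but uninjured replicate 1.

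**Figure D4:**
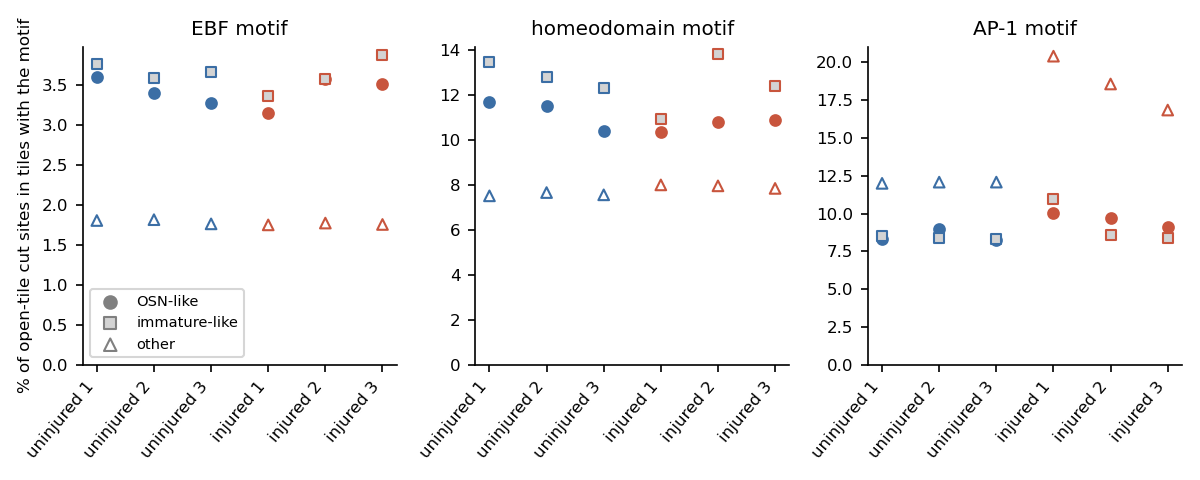
Percentage of open-tile cut sites in tiles with the EBF consensus, homeodomain (TAATTA) and AP-1 motifs in each library, for OSN-like cells (circles), immature neuron-like cells (squares) and other cells (triangles), blue for uninjured and red for injured. The EBF share of OSN-like cells is 3.15 to 3.6% and that of other cells 1.75 to 1.81%, and the AP-1 share of other cells is 12 to 12.1% in uninjured and 16.8 to 20.4% in injured libraries while that of OSN-like cells is 8.27 to 10.0%.

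Injury was first compared for AP-1, the motif of Fos and Jun dimers, which are known to respond to injury in epithelia. The AP-1 share of the whole samples was known from earlier work before it was measured here within the cells. Other cells were 53.7 to 72.6% of the barcodes of each library. Their AP-1 values, and the class difference that uses them, are therefore not independent of that earlier work. Tiles with AP-1 took 8.32, 9.0 and 8.27% in the uninjured and 10.0, 9.69 and 9.08% in the injured libraries of the open-tile cut sites of OSN-like cells. The groups did not overlap here, but did with doublets left out (0.969 points, exact permutation p = 0.4) and, over all 6 libraries, at a marker fold of 5 or more (0.792 points, exact permutation p = 0.2). In other cells of these libraries the share was 12, 12.1 and 12.1% in the uninjured and 20.4, 18.6 and 16.8% in the injured libraries, with no overlap either. The tests between groups use the 5 libraries with 10 or more OSN-like cells, which drops injured replicate 2 with its 9 cells. OSN-like cells had 8.53 ± 0.408% before (SD, n = 3) and 9.56 ± 0.673% after injury (SD, n = 2), a difference of 1.03 percentage points (two-sided exact permutation p = 0.2, the lowest this design allows). With all 6 libraries the difference was 1.08 points (exact permutation p = 0.1, the smallest possible). In other cells the means were 12.1 ± 0.0469% and 18.6 ± 1.78% (SD, n = 3 each), a difference of 6.56 points (exact permutation p = 0.1, the smallest possible).

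The difference between the classes was tested itself. OSN-like minus other cells of the same library gave -3.68, -3.08 and -3.81 points in the uninjured and -10.4, -8.88 and -7.76 points in the injured libraries. All 3 injured libraries lay below the 3 uninjured ones, with a difference of means of -5.48 points (two-sided exact permutation p = 0.1, the lowest this design allows with 3 against 3). With the 5 libraries the difference was -5.55 points (exact permutation p = 0.2, the smallest possible). Immature neuron-like cells also lay below other cells of each library, with AP-1 shares of 8.54, 8.38 and 8.29% in the uninjured and 11, 8.61 and 8.41% in the injured libraries, so a lower share than in other cells is not particular to OSN-like cells. Relative to other cells of the library, the basal marker rate of OSN-like cells was 0.360, 0.493 and 0.381 in the uninjured and 0.588, 0.355 and 0.413 in the injured libraries. It was highest in injured replicate 1, which also had the highest AP-1 share. It was lowest in injured replicate 2, which had the next highest AP-1 share. How far the rate and the AP-1 share go together was not tested. The mean rates over the 5 libraries were 0.411 in the uninjured and 0.5 in the injured group, and 0.222 and 0.287 when Dst and Lamb3 were left out. In a comparison added after seeing the data, 4 OSN-like cells with a basal marker rate above that of other cells were left out. The AP-1 share of the other 168 was then 8.32, 9.0 and 8.26% in the uninjured and 9.32, 9.69 and 9.09% in the injured libraries, a difference of 0.676 points over the 5 libraries (exact permutation p = 0.2, the smallest possible) and of 0.839 points over all 6 (exact permutation p = 0.1, the smallest possible). With all OSN-like cells kept, the difference was 0.557 points when injured replicate 1 was left out of the 5 libraries, and 1.81 points over the 5 in regions 5 kb or more from a start.

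Over gene windows, no change after injury was called in OSN-like cells. Of 13723 windows tested by edgeR's quasi-likelihood test over the 5 libraries, 0 had an adjusted p under 0.05 in either direction, a share of 0%, and the smallest adjusted p was 0.703. At an unadjusted p under 0.05 there were 308 higher and 127 lower windows, and DESeq2 also called 0 (284 higher and 81 lower unadjusted). The biological coefficient of variation was 0.268. Of the marker genes, Stoml3, at 119.7, 129 and 119 CPM in the uninjured and 67.2, 100.4 and 82.5 CPM in the injured libraries, had the largest negative difference, a log2 change of -0.62 ± 0.27 (SE; unadjusted p = 0.0334, edgeR adjusted p = 0.999). Its injured libraries all lay below the uninjured ones. Rtp1, at 69.5, 58.9 and 91.1 CPM in the uninjured and 111, 103 and 96.3 CPM in the injured libraries, had the largest difference upward, 0.54 ± 0.28 (edgeR adjusted p = 0.999), again without overlap. Omp had -0.30 ± 0.29, Gng13 0.11 ± 0.28 and Rtp2 0.21 ± 0.28 on the log2 scale, each with an edgeR adjusted p of 0.999 and with overlapping groups. The rule used the marker genes, so their changes are a description and nothing is read from their p-values. The share of all windows whose groups did not overlap was not counted, so nothing is read from a lack of overlap either.

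Leaving out single libraries moved this count. Without injured replicate 3, edgeR called 88 windows higher and 20 lower, a fit in which the injured group is 1 library with 13 OSN-like cells that is assumed to vary like the uninjured ones. Without injured replicate 1 it called 1 window, and without any uninjured replicate 0. With no filter on low counts 24 windows were called higher and 0 lower.

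By list, the median log2 change in OSN-like cells was on either side of 0, and over all windows it was -0.01 with 6708 of 13717 above 0. The 9 markers had a median of -0.25 with 4 above 0, the 15 transduction genes -0.25 with 3 above 0, the 15 transcription factor genes -0.18 with 3 above 0 and the 13 synapse and axon genes tested -0.35 with 1 above 0. The rule used the markers and the genes of the immature neuron list, so nothing is read from the medians of those lists. Medians above 0 were found for the immature neuron list (0.11, 5 of 7 above 0), the position list (0.34, 5 of 7) and the horizontal basal cell list (0.35, 3 of 4), and the 2 Bowman gland genes tested, both above 0, had 0.47. Medians below 0 were also those of the rarer sensory neuron list (-0.35, 2 of 6 above 0), the immune list (-0.24, 0 of 2), the activated basal cell list (-0.17, 1 of 3), the respiratory ciliated list (-0.14, 1 of 5) and the guidance list (-0.11, 4 of 10). Medians nearer 0 included those of the globose basal cell list (0.05, 3 of 5 above 0) and the activity genes (0.04, 5 of 10). None of these genes was called. Injured replicate 1, with the highest basal marker rate, was the lowest library for the sum of the transduction list: its 16 genes summed to 1794 CPM there, against 2487 to 3110 CPM in the other 5 libraries, and its part in those medians was not tested. Adcy3 had -0.47 ± 0.24, Gnal -0.23 ± 0.26, Cngb1 -0.25 ± 0.27, Pde1c -0.43 ± 0.23 and Umodl1 -0.50 ± 0.29. Among the factors, Ebf1 had -0.18 ± 0.24, Ebf2 -0.30 ± 0.25, Ebf3 -0.36 ± 0.24, Ebf4 -0.33 ± 0.26, Lhx2 -0.27 ± 0.27 and Dlx5 0.98 ± 0.47, the largest difference upward of that list (edgeR adjusted p = 0.999 each). Lamb3, a basal cell gene, had 1.35 ± 0.48 (edgeR adjusted p = 0.999) through injured replicate 1.

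Stress genes gave no call in OSN-like cells either. Of 13 tested, 6 had a log2 change above 0 and 0 were called. Atf3, at 97.6, 60.1 and 129 CPM in the uninjured and 80.7, 92.3 and 129.9 CPM in the injured libraries, had 0.23 ± 0.31, and Jun, at 149, 210.4 and 162 CPM in the uninjured and 80.7, 195 and 144 CPM in the injured libraries, had -0.52 ± 0.28 (edgeR adjusted p = 0.999 each). The groups overlapped for both. Of the 10 activity genes, 5 had a change above 0, and Npas4 had -0.27 ± 0.54. In other cells of the same libraries edgeR called 225 windows higher and 22 lower of 19452, but OSN-like cells have far fewer cut sites, so these counts are not compared.

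**Figure D5:**
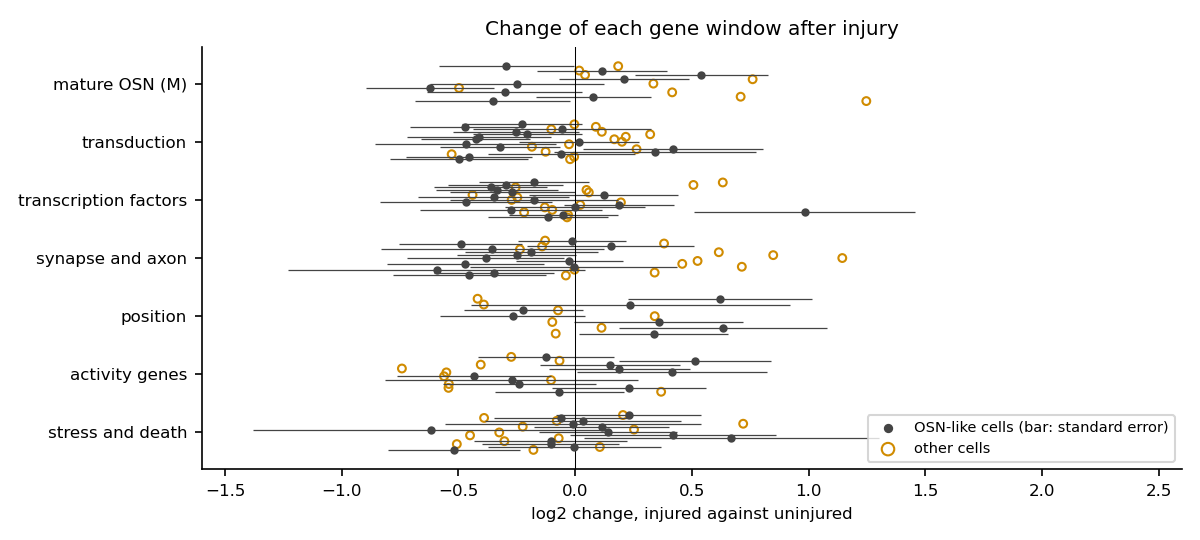
Log2 change after injury of gene windows in OSN-like cells (points, with the standard error of the edgeR fit over 5 libraries) and in other cells (open circles), by gene list. No gene shown is called in OSN-like cells, and the medians of the marker, transduction, factor and synapse lists are -0.25, -0.25, -0.18 and -0.35. The marker genes were used by the rule and are a description.

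Whether windows changed differently in OSN-like and other cells was tested over the 5 libraries by an interaction with library as a block. Of 18436 windows, 1 was called by edgeR (adjusted p under 0.05), a share of 0.00542%, and 388 higher and 450 lower had an unadjusted p under 0.05. The window was Adam12, a metalloproteinase of the ADAM family (chr7:133883199-134232146). In OSN-like cells it stood at 166, 92.7 and 77.5 CPM in the uninjured and 49.9, 59.7 and 57.5 CPM in the injured libraries, so the injured libraries were lower without overlap. In other cells it stood at 25.0, 18.7 and 24.4 CPM in the uninjured and 64.8, 64.2 and 61.5 CPM in the injured libraries, where the injured libraries were higher without overlap. Its change was -0.96 ± 0.34 in OSN-like cells (edgeR adjusted p = 0.999) and 1.57 in other cells (edgeR adjusted p = 0.0153), and the difference of the changes was -2.47 ± 0.37 (SE, edgeR adjusted p = 0.00198). Leaving out 1 library at a time kept it between -2.81 and -2.22 with adjusted p of at most 0.0119. The difference was -2.14 when doublets were removed, where edgeR gave an adjusted p of 0.0763, and -4.12 in the promoter window (edgeR adjusted p = 1), and in neither was it called.

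The number of windows called in the interaction moved with the libraries, to 7 when uninjured replicate 1 was dropped, 21 when uninjured replicate 3 was dropped and 171 when injured replicate 3 was dropped, and it was 0 once doublets were removed. No gene of the lists was called, and the smallest edgeR adjusted p among them was 0.541, for Stmn4 with a difference of changes of -1.84. Stmn4 is a marker gene used to choose both classes, so nothing is read from its value.

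Quality measures within the OSN-like cells bear on these comparisons. The median number of fragments per OSN-like cell was 29276, 23099 and 28994 in the uninjured and 16196, 19680 and 18573.5 in the injured libraries. Every injured library lay below every uninjured one, and the means of the 5 libraries tested were 27123 ± 3488 (SD, n = 3) and 17385 ± 1681 (SD, n = 2), exact permutation p = 0.2, the smallest possible. Among cells with 10000 or more fragments the groups overlapped, with a difference of -6470 over all 6 libraries (exact permutation p = 0.2, smallest possible 0.1). In immature neuron-like cells the groups did not overlap, at 41762, 45944 and 46905 in the uninjured and 21560, 30499 and 34417 in the injured libraries, with the injured libraries lower. In other cells of the same libraries the medians overlapped, at 13709 to 24144. Enrichment of cut sites at transcription starts, the rate within 50 bp of a start over that 1900 to 2000 bp away, was 39.8, 37.7 and 46.4 in the uninjured and 35.7, 38.5 and 40.5 in the injured libraries for OSN-like cells and 23.4 to 36.1 for other cells. Its difference after injury was -3.23 (exact permutation p = 0.6) and turned to 1.68 at a marker fold of 5 or more, a comparison that used all 6 libraries. Fragments under 100 bp made up 34.4 to 40.6% in OSN-like and 32.4 to 39.1% in other cells. The part of the lower depth of injured OSN-like and immature neuron-like cells in the injury results was not tested.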

How the data were processed

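Single-cell ATAC-seq was measured in 6 libraries, 3 uninjured and 3 injured. Per the submitters' processing notes, reads were processed with Cell Ranger 2.0.0 on mm10. Per the file headers, the matrices came from software version 1.2.0. The deposited fragment files give, for each barcode, the positions of its fragments and the count of read pairs behind each, and the authors' deposited peak matrices hold counts per peak. Fragments were used here, each counted once, and no peak matrix entered a test. Whether the aligner's filters differed between libraries is not given in the sources used here.

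Cut sites were counted in windows of protein-coding genes (GENCODE M21, GRCm38), in promoters of 1 kb either side of the start and in 500 bp tiles. Barcodes with 5000 or more fragments were kept. Counts were summed per library and cell class, since cells are not replicates, and the 5 libraries with 10 or more OSN-like cells were tested with edgeR 4.0.16 in R 4.3.3 (TMM, filterByExpr, robust quasi-likelihood test, Benjamini-Hochberg adjustment, threshold 0.05), with library as a block in the comparison of cell classes. DESeq2 1.42.0 was the alternative. For single values the groups were compared with two-sided exact permutation tests. Python 3.11.15, NumPy 2.4.6, SciPy 1.17.1 and statsmodels 0.14.6 were used. The edgeR fits were tested on simulated data with known changes. Wilson intervals (95%) and limits from a count of 0 cover counting error only. Doublets were barcodes with more stretches covered by over 2 fragments than the depth trend of their library gives (adjusted p under 0.01).

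The lists of cell type markers (horizontal basal, sustentacular, microvillar, globose basal, Bowman gland, immune, ensheathing glia, endothelial and stromal, respiratory ciliated) and of transduction, transcription factor, synapse, guidance, position, rare sensory neuron, activity, stress and activated basal cell genes, and the members themselves, were chosen with earlier results of these data known. Named are all genes of the marker, transduction, transcription factor and position lists, the 10 gene windows outside the lists and the 10 distal regions with the highest ratio to other cells. Some items that the rule names are not reported here. The rule also named up to 5 windows per direction called after injury, and none was called. Regions on chromosome 18 were not considered for printed sequences. Other genes were named as examples after their values were seen. Replicate numbers are shared by the groups and go with the age of the mice, but nothing in the labels says that they mark a shared litter or day, and the correlation of deviations was 0.01 for the pair numbered 1 and 0.12 for the pair numbered 3.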

Additional observations from a re-analysis of the deposited data

Results flagged for a closer look

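The window of Adam12 changed differently after injury in OSN-like and in other cells, by -2.47 ± 0.37 on the log2 scale (SE, edgeR quasi-likelihood interaction, adjusted p = 0.00198). All 3 injured libraries were below the uninjured ones in OSN-like cells and above them in other cells. With doublets left out the difference was -2.14 (edgeR adjusted p = 0.0763) and in the promoter window -4.12 (edgeR adjusted p = 1), so its direction stayed and neither was called. The 2 classes come from the same libraries, and the window spans chr7:133883199-134232146.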

How the results depend on the processing

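The difference in the share of OSN-like cells, injured minus uninjured, turned from 2.63 to -1.76 percentage points without injured replicate 3. It ran up to 5.17 points as other single libraries were left out. The difference in enrichment at starts turned to 1.68 at a marker fold of 5 or more, and the cause was not tested. Without single libraries it ran from -5.63 to -0.669. Leaving out single libraries gave differences of -11750 to -8550 in median fragments (-6470 at 10000 or more fragments), 0.00138 to 0.177 in the relative basal marker rate, 0.557 to 1.51 points in the AP-1 share (1.81 in regions 5 kb or more from a start) and 0 in the share with a leading receptor. That share differed by -10.2 points with all fragments of each cell. Windows called after injury ran from 0 to 108 without single libraries and were 24 with no filter on low counts. Windows called in the comparison of classes, 1 in the report, ran from 1 to 171 without single libraries. They were 5 with all 6 libraries, and 4 at a marker fold of 5 and 5 at 10000 or more fragments, which also used all 6 libraries. They were 3 at a fold of 2, 0 with doublets left out, 2 in promoters, 31 with no filter and 7 with DESeq2.

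With the replicate number as a block, the share differed by 2.63 points (exact permutation p = 1, smallest possible 0.25), median fragments by -11750, enrichment at starts by -5.03, the basal marker rate by 0.130, the AP-1 share by 1.27 points (exact permutation p = 0.5, the smallest possible) and the leading receptor share by 0, and edgeR called 0 of 14804 windows. Libraries that share a number come from mice of the same age, and the labels give nothing else that they share. With 1 injured library dropped only 2 pairs remained.

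The number of cells and libraries limits these comparisons. The 3 injured libraries hold 13, 9 and 94 OSN-like cells, so without injured replicate 3 the injured group is a single library of 13 cells in the edgeR fit. Exact tests of 3 against 2 libraries cannot go below p = 0.2.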
